A study of Mus musculus with 6 samples.

Results

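The α subunits of the Gq class and the β isoforms of phospholipase C (PLCβ) form the link between many hormone receptors and the release of Ca2+ from the ER. The genes described here are *Gnaq*, *Gna11* and *Gna15*, which encode 3 of the Gq class α subunits, *Plcb1*, *Plcb2*, *Plcb3* and *Plcb4*, which encode the PLCβ isoforms, and *Tgm2*, which encodes transglutaminase 2, an enzyme that also binds GTP and can act as an atypical G protein. They were taken by their gene symbols and are 8 of the 16640 genes in the deposited files. *Gna14*, the remaining gene of the Gq class, is given beside them. When a receptor binds its ligand, it loads the α subunit with GTP, and the α subunit then switches on PLCβ. PLCβ cleaves the membrane lipid PIP2 into IP3, which opens Ca2+ channels of the ER, and diacylglycerol, which recruits protein kinase C. In β-cells this pathway is known for raising insulin secretion when acetylcholine or fatty acids reach their receptors.

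RNA was sequenced from MIN6, a β-cell line derived from a mouse insulinoma, which was kept in medium with a high level of glucose. All cells had received lentivirus for dCas9 fused to an activator domain and lentivirus for an sgRNA, each followed by drug selection. In *Thada*-activated cells the sgRNA carried further activators to the promoter of *Thada*, and in control cells a non-targeting sgRNA was used. There were 3 libraries per condition, numbered 1, 2 and 3, and the comparison asks what the activation of *Thada* changes in these cells. Whether a line arose from 1 clone is not given in the sources used here. The authors describe their work in vitro as independent experiments in general, but the labels do not say that these replicates were separate cultures, so p-values measure only the spread between these libraries. Library totals were 17272834, 17166511 and 17689611 counts in control and 17727004, 17385036 and 17224631 counts in *Thada*-activated cells. Levels are given as CPM, that is, counts scaled to library size with TMM, and values of 3 libraries follow the order of their numbers. SE stands for standard error. Before scaling with TMM, a count of 1 was worth from 0.0564 to 0.0583 CPM, and counts of 3 or fewer were taken as the floor.

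Markers were compared with the label before the genes themselves. All 15 β-cell markers on the list were in the files, their summed level was from 112300 to 142600 CPM per library, and *Ins2* was the most abundant. *Slc2a2* had at most 9 counts in a library and did not pass the expression filter. Of 13 blood cell markers, 9 were in the files, with a summed level from 3.27 to 7.61 CPM, *Coro1a* at the top, and *Adgre1*, *Itgam*, *Lyz2* and *Cd3e* at or under the floor in every library. *Thada* itself was at 28.1, 28.9 and 17.2 CPM in control libraries and at 57.3, 56.2 and 49.1 CPM in *Thada*-activated libraries, so every library followed its label.

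Replicate 3 was set apart from the rest in both conditions. The first principal component separated them and carried 80.1% of the variance. *Ins1* and *Ins2* together took 10.6% and 8.84% of the counts in control and *Thada*-activated replicate 3, against 5.87% to 6.73% in the libraries numbered 1 and 2. Of 14 β-cell markers tested, 1 was called higher and 6 lower in replicate 3 by the test described below, which called 15.7% of all tested genes higher and 15.4% lower. The summed blood cell markers were also lower there, at 3.27 and 3.75 CPM against 5.70 to 7.61 CPM. Summed stromal and endothelial markers were higher, at 5.51 and 7.05 CPM against 3.32 to 4.14 CPM, and of the 2 tested genes *Col1a1* had a log2 fold change of 1.28 and *Col1a2* of -0.21. Of 2 tested exocrine and ductal markers, 2 were called lower, *Krt7* (-0.99) and *Krt19* (-0.83). Of 3 tested genes on the list of other islet hormones, *Ppy* (0.70) was called higher and *Sst* (-1.14) lower. The part of all these markers in the differences of replicate 3 was not tested, and in bulk RNA fewer cells of a type and less RNA per cell cannot be told apart. The members are therefore compared between conditions across all libraries and within each number.

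*Gna11* was the leading Gq class gene of these cells. Its level per length was 57.4 ± 4.58 FPKM (SD, n = 6), where FPKM scales the counts by gene length and library size. It was followed by *Gnaq* at 17 ± 3.40 FPKM (SD, n = 6). *Gna15*, whose product is known for coupling to a broad range of receptors and for its expression in blood cells, was at 0.770 ± 0.145 FPKM (SD, n = 6). *Gna14* had from 3 to 12 counts per library, or 0.138 ± 0.0605 FPKM (SD, n = 6), and did not pass the expression filter. The steps from *Gna11* to *Gnaq* and from *Gnaq* to *Gna15* were larger than the spread between libraries.

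The shares of *Gna11* and *Gnaq* in the summed FPKM of the class varied little over replicates 1 and 2 and were different in replicate 3. *Gna11* made up 72.5%, 72.5% and 82.8% of the class in control libraries and 73.7%, 73.5% and 81.7% in *Thada*-activated libraries. *Gnaq* made up 26.1%, 26.05% and 15.98% in control libraries and 25.1%, 25.6% and 17.2% in *Thada*-activated libraries. Both replicate 3 libraries thus had the highest shares of *Gna11* and the lowest of *Gnaq*, with no overlap with the remaining 4 libraries. Such a lack of overlap was common, since it held for the levels of 71.8% of all tested genes. The *Gna11* share rested at 82.3% ± 0.780 (SD, n = 2) in replicate 3 and 73.0% ± 0.642 (SD, n = 4) in replicates 1 and 2, a difference of 9.26 percentage points (p = 0.0667 by a two-sided exact permutation test, which cannot go lower with 2 libraries against 4, and 0.267 after Benjamini-Hochberg adjustment over 16 share comparisons). The *Gnaq* share differed by -9.10 percentage points with the same p-values. *Gna11* and *Gnaq* make up nearly all of the class, so these share differences are not independent of each other. Between conditions, the mean shares of *Gna11* were 75.9% ± 5.98 in control and 76.3% ± 4.71 in *Thada*-activated cells (SD, n = 3), a difference of 0.365 points that was far smaller than the spread within either condition (two-sided exact permutation test, p = 0.8, adjusted 1, where 3 libraries against 3 cannot give a p under 0.1).

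The ratio of *Gna11* to *Gnaq* sums up this shift. It was 2.84 ± 0.0744 (SD, n = 4) on the FPKM scale in replicates 1 and 2 and 4.96 ± 0.314 (SD, n = 2) in replicate 3. The summed level of the class moved little, at 74.8 ± 1.37 FPKM (SD, n = 4) in replicates 1 and 2 and 76.3 ± 3.12 FPKM (SD, n = 2) in replicate 3. *Gna15* never took more than 1.24% of the class, and *Gna14* never more than 0.297%. The *Gna15* share averaged 1.18% ± 0.0597 in control and 0.867% ± 0.138 in *Thada*-activated cells (SD, n = 3), with no overlap between conditions (two-sided exact permutation test, p = 0.1, adjusted 0.32). It rests on 17 to 28 counts per library, and the levels of 5.4% of all tested genes did not overlap between conditions, in either direction.

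**Figure D1:**
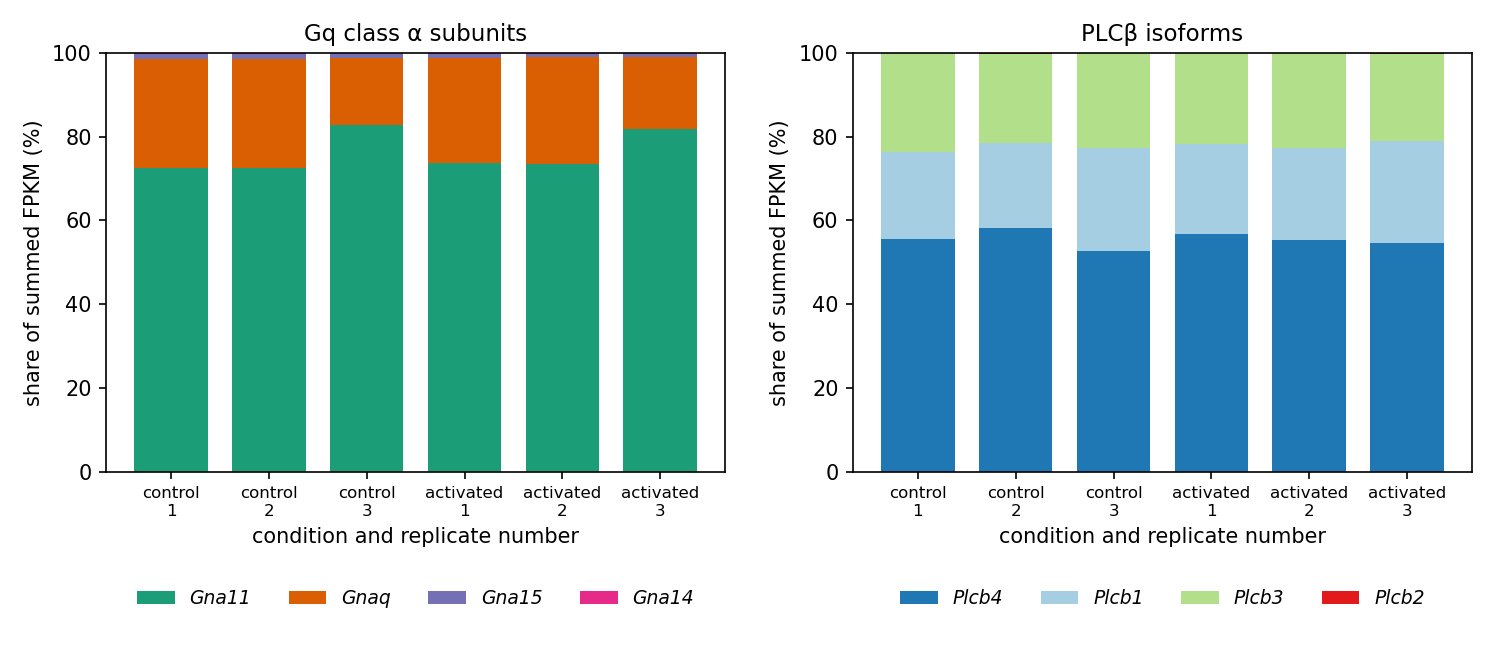
Share of each gene, in percent of the summed FPKM of its family, in each of the 6 libraries (x axis: condition and replicate number), for the Gq class α subunits (left) and the PLCβ isoforms (right). *Gna11* takes 82.8% and 81.7% of the Gq class in the replicate 3 libraries and 72.5% to 73.7% in the others, while *Plcb4* takes over 52% of the PLCβ sum in every library.

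The Gq class genes lie in tandem pairs in GRCm38, as annotated by GENCODE M21. *Gnaq* spans chr19:16132831-16387463 and *Gna14* chr19:16435762-16610820, both on the plus strand and 48.3 kb apart. *Gna15* spans chr10:81502306-81524225 and *Gna11* chr10:81528724-81545190, both on the minus strand and 4.50 kb apart. No protein-coding gene lies in either gap. *Plcb1* (chr2:134786067-135475258) and *Plcb4* (chr2:135659011-136014593) form a pair of the same kind on the plus strand, 184 kb apart. *Plcb2* (chr2:118707517-118728438), *Plcb3* (chr19:6952325-6976470) and *Tgm2* (chr2:158116402-158146436) stand on the minus strand. *Plcb3* overlaps *Ppp1r14b* and *Tgm2* overlaps *Rprd1b*, each on the opposite strand. For *Gna15*, *Plcb2* and *Tgm2* the deposited table gives the plus strand instead. Whether the counting used strand is not given in the sources used here, and overlap of exons was not examined.

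Whether shares can be read at all depends on how well reads separate the genes of a family. The coding sequences of *Gnaq* and *Gna11* were identical at 869 of 1080 aligned bases (80.5%), and their longest identical run was 38 bases. *Gnaq* shared 75.5% with *Gna14* and 62.6% with *Gna15*, and pairs of PLCβ genes shared from 53.2% to 63.9%. The annotated transcripts of the Gq class genes had no stretch of 50 bases in common with each other when read in the sense direction. *Gna11*, *Gna14*, *Gna15*, *Plcb2*, *Plcb3* and *Tgm2* had none in common with any other gene, while 0.163% of the stretches of *Gnaq*, 0.464% of those of *Plcb1* and 0.198% of those of *Plcb4* also occurred elsewhere. All counts of the 8 genes were whole numbers, as were 91.1% to 91.9% of the counts of all genes in a library.

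The end of the coding sequence shows how close the class members are where the α subunit is known to contact the receptor. The last 60 coding bases before the stop codon are printed 5′ to 3′ from GRCm38, all from exon 7 of 7, at chr19:16383332-16383391 (plus strand) for *Gnaq*, chr10:81530798-81530857 (minus strand) for *Gna11*, chr19:16609468-16609527 (plus strand) for *Gna14* and chr10:81502882-81502941 (minus strand) for *Gna15*. Capitals mark bases that differ from *Gnaq* in an alignment without gaps.
Gnaq: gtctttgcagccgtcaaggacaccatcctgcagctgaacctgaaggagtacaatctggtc
Gna11: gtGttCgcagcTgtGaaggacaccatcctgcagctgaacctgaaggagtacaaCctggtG
Gna14: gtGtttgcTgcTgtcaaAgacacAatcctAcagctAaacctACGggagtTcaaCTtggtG
Gna15: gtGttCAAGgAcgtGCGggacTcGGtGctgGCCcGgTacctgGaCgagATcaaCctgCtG
*Gna11* differed from *Gnaq* at 6 of these bases, *Gna14* at 14 and *Gna15* at 25.

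Among the PLCβ isoforms, *Plcb4* was the most abundant at 17.5 ± 1.97 FPKM (SD, n = 6). *Plcb1* and *Plcb3* were both near 7 FPKM (6.98 ± 0.313 and 6.97 ± 0.640, SD, n = 6) and did not differ beyond their spread. *Plcb2*, an isoform known from blood cells, had 2, 2 and 2 counts in control libraries and 1, 0 and 3 counts in *Thada*-activated libraries, at the floor throughout, so no fold change is given for it. The count of 0 in *Thada*-activated replicate 2 has an exact 95% Poisson interval that reaches 3.69 counts, which covers counting error only. In the order of FPKM over all members, *Gna11* came first, then *Plcb4* and *Gnaq*, then *Plcb1* and *Plcb3*, *Gna15*, *Tgm2* and *Plcb2*. *Plcb4* and *Gnaq* did not differ beyond the spread between libraries.

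*Plcb4* held the largest PLCβ share in every library. It was 55.5%, 58.3% and 52.6% in control libraries and 56.7%, 55.3% and 54.7% in *Thada*-activated libraries. *Plcb1* held 20.8%, 20.2% and 24.8% in control and 21.6%, 21.9% and 24.3% in *Thada*-activated libraries, so its 2 highest shares were those of replicate 3. Its mean share was 24.5% ± 0.329 (SD, n = 2) there and 21.1% ± 0.817 (SD, n = 4) in replicates 1 and 2 (two-sided exact permutation test, p = 0.0667, adjusted 0.267). The level of *Plcb1* itself hardly differed in replicate 3 (log2 fold change 0.04, SE 0.07 in edgeR). The PLCβ sum was 29.1 ± 3.01 FPKM (SD, n = 2) there and 32.7 ± 1.46 FPKM (SD, n = 4) in replicates 1 and 2. *Plcb3* held from 20.8% to 23.7% and *Plcb2* at most 0.128%. No PLCβ share differed between conditions by more than 0.805 percentage points, and the exact permutation p was 0.5 or above for each. The summed PLCβ level was 31.6 ± 4.07 FPKM in the controls and 31.4 ± 0.233 FPKM with *Thada* activated (SD, n = 3).

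No Gq class or PLCβ gene passed the test between control and *Thada*-activated cells. Of the 8 members, 7 passed the expression filter and 0 were called in the comparison of conditions, where a call required an adjusted p under 0.05 and a fold change over 1.5. The same held for 0 of all 12516 tested genes (0%) in edgeR's quasi-likelihood test, while 101 genes (0.807%) had an unadjusted p under 0.05 and DESeq2's Wald test called 5 genes, none of them a member. Blocked by replicate number, edgeR called 19 genes (0.152%), 13 higher and 6 lower in *Thada*-activated cells, and 28 (0.224%) had an adjusted p under 0.05, again with no member among them. *Thada* itself had a log2 fold change of 1.13 with an adjusted p of 1 in edgeR without the block and of 0.00041 with it, so an adjusted p of 1 without the block says little about a member.

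*Gnaq* was at 107, 104 and 69.6 CPM in the controls and at 105, 106 and 68.9 CPM with *Thada* activated. In both conditions replicate 3 was the low library, and at equal numbers the conditions nearly coincided. The means were 93.6 ± 20.8 and 93.2 ± 21.1 CPM (SD, n = 3), and the log2 fold change was -0.01 (SE 0.24, adjusted p = 1 in edgeR). Blocked by replicate number, the 95% interval of the fold was from 0.908 to 1.09. For *Gna11*, the libraries held 168, 164 and 204 CPM in the controls and 174, 172 and 186 CPM with *Thada* activated, with the replicate 3 libraries on top in both. Its log2 fold change was -0.01 (SE 0.12, adjusted p = 1 in edgeR), and the blocked interval of the fold was from 0.903 to 1.10.

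In the fit on all libraries, *Gna15* was the tested member with the largest difference between conditions in size. In replicates 1 and 2 alone that of *Tgm2* was larger, at -0.58 on the log2 scale with the replicate block against -0.46 for *Gna15*. The same order held without control replicate 2 and without *Thada*-activated replicate 3. *Gna15* was at 1.58, 1.63 and 1.61 CPM in the controls and 1.35, 0.978 and 1.19 CPM with *Thada* activated, which are 27, 28 and 28 counts against 24, 17 and 21 counts. Every control library was thus above every *Thada*-activated library. Conditions without overlap, in either direction, were found for 1 of the 7 tested members and for 5.4% of all tested genes. The mean was 1.61 ± 0.0241 CPM in the controls and 1.17 ± 0.188 CPM with *Thada* activated (SD, n = 3), with a log2 fold change of -0.45 (SE 0.25, unadjusted p = 0.125, adjusted p = 1 in edgeR) and a blocked interval of the fold from 0.492 to 1.09. At this depth the counts overlap in their counting error, since the exact 95% Poisson interval of 28 counts reaches from 18.6 to 40.5 counts and that of 17 counts from 9.90 to 27.2 counts.

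**Figure D2:**
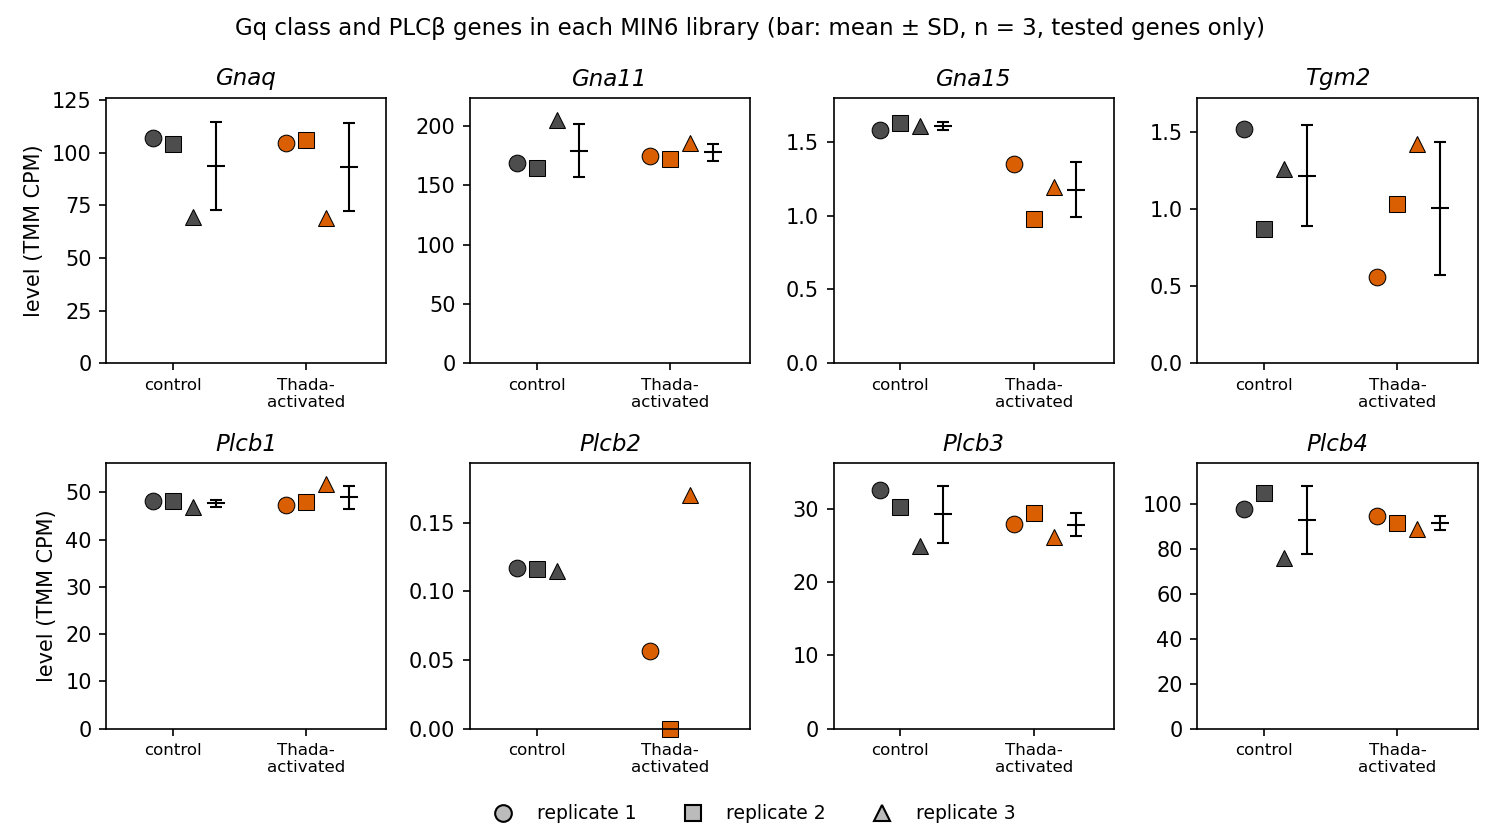
Level (TMM CPM, linear axes starting at 0) of each of the 8 genes in the 3 control and 3 *Thada*-activated libraries, with the replicate number as the symbol and the mean ± SD (n = 3) beside the points of the tested genes. *Gnaq* falls to 69.6 and 68.9 CPM in the replicate 3 libraries from 104 CPM or more in the others. *Gna15* is the tested gene shown whose conditions do not overlap, which was so for 5.4% of all tested genes.

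The PLCβ genes did not separate the conditions either. *Plcb4* was at 97.5, 105 and 76.0 CPM in the controls and 94.8, 91.3 and 88.6 CPM with *Thada* activated. Its control libraries were the more widely spread, with the highest and the lowest value of all 6 among them. *Plcb1* was nearly even over the libraries, from 46.8 to 51.8 CPM, with *Thada*-activated replicate 3 at the top. *Plcb3* was at 32.5, 30.3 and 25.0 CPM in the controls and 27.98, 29.4 and 26.2 CPM with *Thada* activated, so that the ranges overlapped. Their log2 fold changes were -0.02 for *Plcb4*, 0.04 for *Plcb1* and -0.07 for *Plcb3*, each with an adjusted p of 1 in edgeR and SEs from 0.09 to 0.14. The blocked 95% intervals of the fold ran from 0.884 to 1.12 for *Plcb4*, from 0.923 to 1.14 for *Plcb1* and from 0.842 to 1.084 for *Plcb3*.

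*Tgm2* had few counts and the widest spread of the tested members relative to its level. Control libraries held 26, 15 and 22 counts and *Thada*-activated libraries 10, 18 and 25 counts, which is 0.328 ± 0.103 FPKM over all libraries (SD, n = 6). The lowest and the highest library of the 6 were the replicate 1 libraries of the opposite conditions. Its log2 fold change was -0.28 (SE 0.42, adjusted p = 1 in edgeR), and the blocked interval of the fold, from 0.484 to 1.39, leaves room for a difference in either direction. Of the other transglutaminase genes, 8 were in the files and 2 passed the filter, *F13a1* at 0.513 FPKM and *Tgm5* at 0.483 FPKM on average.

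The genes around these members in the pathway were taken from lists on other Gα subunits (9 tested genes), Gβ and Gγ subunits (11), other phospholipase C genes (8), Gq regulators (15), Gq-coupled receptors (15), PIP2 supply (15), IP3 receptors and IP3 breakdown (14), the diacylglycerol arm (20) and other transglutaminases (2). None of them was called between conditions, with or without the replicate block. Without it, 2 had an unadjusted p under 0.05 in edgeR, 1 on the list of IP3 genes and 1 on the diacylglycerol list. This was so for 0.807% of all tested genes. With the block, such a p was reached by 2 regulators, 2 receptors and 2 genes of the diacylglycerol arm. It was also reached by 1 gene each of the Gβ and Gγ, PIP2 and IP3 lists, beside 1302 of all 12516 tested genes. Median log2 fold changes of the lists with more than 2 genes were from -0.04 to 0.07, beside 0.00 for all tested genes.

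The replicate 3 libraries differed from replicates 1 and 2 in far more genes, and *Gnaq* was the member called there. This split was chosen with earlier results of these data known, so its p-values are not those of a split set in advance. Of 12516 tested genes, 3893 (31.1%) were called in edgeR with the condition as a further term, 1970 higher (15.7%) and 1923 lower (15.4%). Among the 7 tested members this was 1, *Gnaq*, which was lower. It averaged 106 ± 1.18 CPM (SD, n = 4) in replicates 1 and 2 and 69.3 ± 0.544 CPM (SD, n = 2) in replicate 3, which is 0.656 times the level (95% interval from 0.603 to 0.715, log2 fold change -0.61, SE 0.06, adjusted p = 3.57e-07 in edgeR). The 2 replicate 3 libraries lay apart from all 4 others. The difference was of the same size in control libraries alone and in *Thada*-activated libraries alone, at -0.60 on the log2 scale in each. It stands close to the fold threshold of 1.5, and with library sizes taken without the 20 top genes it was -0.57 and no longer past it (adjusted p = 6.4e-07 in edgeR). In limma on log2(FPKM + 1) it was also -0.57 (adjusted p = 1.66e-05).

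*Gna11*, *Plcb3* and *Plcb4* showed smaller differences that did not reach a fold of 1.5. *Gna11* averaged 170 ± 4.43 CPM (SD, n = 4) in replicates 1 and 2 and 195 ± 13.2 CPM (SD, n = 2) in replicate 3, a log2 fold change of 0.20 (SE 0.06, adjusted p = 0.00734 in edgeR). *Plcb3* went from 30.0 ± 1.90 to 25.6 ± 0.854 CPM (log2 fold change -0.23, SE 0.08, adjusted p = 0.0197 in edgeR). *Plcb4* went from 97.1 ± 5.71 to 82.3 ± 8.95 CPM (log2 fold change -0.24, SE 0.08, adjusted p = 0.0117 in edgeR). For these genes and for *Gnaq*, replicate 3 did not overlap with the other libraries, which was so for 4 of 7 members and for 71.8% of all tested genes. An adjusted p under 0.05 without a fold threshold was likewise reached by 4 of 7 members and by 68.6% of all tested genes. Of the members, 1 was higher and 3 were lower, beside 34.3% and 34.4% of all tested genes.

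The smaller differences shrank without control replicate 3. The log2 fold change was then 0.10 for *Gna11*, -0.13 for *Plcb3* and -0.07 for *Plcb4*, while that of *Gnaq* was -0.61. In *Thada*-activated libraries alone these were 0.11, -0.12, -0.06 and -0.60, against 0.29, -0.33, -0.42 and -0.60 in control libraries alone. Replicate 3 is 1 library in each of these fits, so no p-value is given for them. *Plcb3* also missed an adjusted p of 0.05 in DESeq2 (0.0668), and in edgeR with library sizes taken without the 20 top genes (0.0504) or without control replicate 1 (0.0542). *Gna15*, *Plcb1* and *Tgm2* had log2 fold changes of 0.02, 0.04 and 0.44 in replicate 3 with SEs of 0.26, 0.07 and 0.34, and adjusted p-values of 0.962, 0.590 and 0.262 in edgeR. With 1 library left out, that of *Tgm2* was from 0.08 to 0.83. *Thada*, the targeted gene, had -0.42 on the log2 scale (SE 0.10, adjusted p = 0.00168 in edgeR), and from -0.73 to -0.21 with 1 library left out.

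Of the other Gα genes, 2 of 9 were called in replicate 3, or 22.2%, beside 31.1% of all tested genes. By adjusted p alone, 3 of 9 were higher and 4 lower, beside 34.3% and 34.4% of all tested genes, and the list median was -0.16. *Gnai1*, a subunit that inhibits adenylyl cyclase, had 1.45 on the log2 scale (SE 0.08) and *Gnal*, the olfactory relative of Gs, 1.21 (SE 0.24), with adjusted p-values of 2.36e-09 and 0.000425 in edgeR. *Gnas*, the stimulatory subunit and the most abundant gene of that list at 2418 FPKM, had -0.35 and was not called. Of the Gβ and Gγ genes, which hold the α subunit at the membrane and carry signals of their own, 4 of 11 were called and all were higher, among them *Gng10* (0.78), *Gnb5* (0.65) and *Gng7* (0.67), with adjusted p-values of 9.51e-08, 7.27e-07 and 5.12e-05 in edgeR. This is 36.4% of the list, beside 31.1% of all tested genes called in either direction and 15.7% called higher. By adjusted p alone, 7 of 11 were higher and 0 lower, beside 34.3% and 34.4% of all tested genes, and the median of this list was 0.53. In limma on log2(FPKM + 1), *Gnal* had 0.27 and *Gng7* 0.55, both under a fold of 1.5. *Gng12*, the most abundant of them, had -0.12 and was not called.

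Of 15 tested receptors that couple to Gq, 3 were called higher and 7 lower. This is 66.7% of the list, beside 31.1% of all tested genes, of which 15.7% were higher and 15.4% lower. *Ffar1*, the receptor through which long-chain fatty acids raise insulin secretion and the most abundant receptor on the list, was at 59.7, 55.9 and 9.06 CPM in the controls and 63.2, 62.0 and 16.95 CPM with *Thada* activated. Replicate 3 was low in both conditions, with a log2 fold change of -2.23 (SE 0.14, adjusted p = 1.13e-07 in edgeR). *Cckbr*, a cholecystokinin and gastrin receptor, was at 31.3 and 33.7 CPM in replicate 3 and from 70.9 to 81.6 CPM elsewhere. It had -1.21, and *P2ry1*, a receptor for ADP, had -0.71 on the log2 scale, with adjusted p-values of 2.59e-09 and 3.14e-07 in edgeR. The median over the list was -0.10, beside 0.00 for all tested genes.

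Of the other phospholipase C genes 2 of 8 were called, and of the Gq regulators 2 of 15, beside 31.1% of all tested genes. By adjusted p alone, 3 of 8 phospholipase genes were higher and 2 lower, and 5 of 15 regulators were higher and 5 lower. Of all tested genes, 34.3% were higher and 34.4% lower by this rule. The called phospholipase genes were *Plcd3* (log2 fold change 2.80, adjusted p = 1.03e-07 in edgeR) and *Plcxd1* (1.11, adjusted p = 0.000117), both higher and with mean levels near or below 1 FPKM. *Plcg1*, the isoform downstream of receptor tyrosine kinases and the most abundant of the list at 24.6 FPKM, was at 102 to 109 CPM in every library and had a log2 fold change of 0.01. The called regulators were *Rgs2* (1.06, adjusted p = 1.97e-07) and *Rgs16* (1.45, adjusted p = 7.21e-05, and from 0.87 to 1.81 with 1 library left out), both higher. RGS proteins speed up the GTP hydrolysis of α subunits, and RGS2 is known for its preference for Gq. *Rgs16* was the less even of these, at 1.46, 1.05 and 2.29 CPM in the controls and 2.08, 1.67 and 6.60 CPM with *Thada* activated. *Rgs4*, the most abundant regulator at 39.9 FPKM, had -0.52 (SE 0.33, and from -1.17 to 0.02 with 1 library left out) and was not called.

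The next lists hold genes around the substrate and the products of PLCβ. An adjusted p under 0.05 was reached by 68.6% of all tested genes. On these lists it was 12 of 15 genes of PIP2 supply, 11 of 14 IP3 genes and 16 of 20 of the diacylglycerol arm. With the fold threshold these were 2, 4 and 7 genes, beside 31.1% of all tested genes. In PIP2 supply, the called genes were lower, the CDP-diacylglycerol synthase gene *Cds1* (log2 fold change -0.81, adjusted p = 1.2e-07 in edgeR) and *Pitpna* (-0.66, adjusted p = 2.31e-07), which encodes a phosphatidylinositol transfer protein. *Pitpna* was under a fold of 1.5 without control replicate 3 (-0.58) and in *Thada*-activated libraries alone (-0.57). *Pip5k1b*, the most abundant kinase gene of that list, had -0.08. Among IP3 receptors and IP3 breakdown, 3 of 14 genes were higher and 1 lower. *Itpka*, a kinase that converts IP3, was at 16.8 and 14.6 CPM in replicate 3 and from 1.73 to 2.44 CPM elsewhere, a log2 fold change of 2.94 (SE 0.14, adjusted p = 5.81e-10 in edgeR). *Impa2* (1.71) and *Inpp4a* (0.65), an inositol monophosphatase and a phosphoinositide phosphatase, were the next by p, and *Ahcyl1*, the most abundant, had 0.48 and was not called.

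In the diacylglycerol arm, 2 of 20 genes were higher and 5 lower. *Unc13a*, which encodes the vesicle priming protein Munc13-1, was at 232, 225 and 101 CPM in the controls and 204, 219 and 121 CPM with *Thada* activated. *Prkca*, a classical protein kinase C, was at 115, 118 and 54.6 CPM in the controls and 116, 114 and 69.7 CPM with *Thada* activated. Both were low in each replicate 3 library, with log2 fold changes of -0.98 and -0.90 and adjusted p-values of 1.07e-07 and 1.73e-07 in edgeR. *Dagla*, a diacylglycerol lipase, had -0.67, and *Marcks*, a substrate of protein kinase C and the most abundant gene of the list, had 0.06. Both tested transglutaminases other than *Tgm2* were lower, *F13a1* by -1.25 and *Tgm5* by -1.08 on the log2 scale, with adjusted p-values of 0.0024 and 0.0111 in edgeR. Without control replicate 3 they had -0.65 and -0.84. In limma on log2(FPKM + 1) they had -0.37 and -0.31, under a fold of 1.5, and *Tgm5* was not called in DESeq2 (adjusted p = 0.0553).

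**Figure D3:**
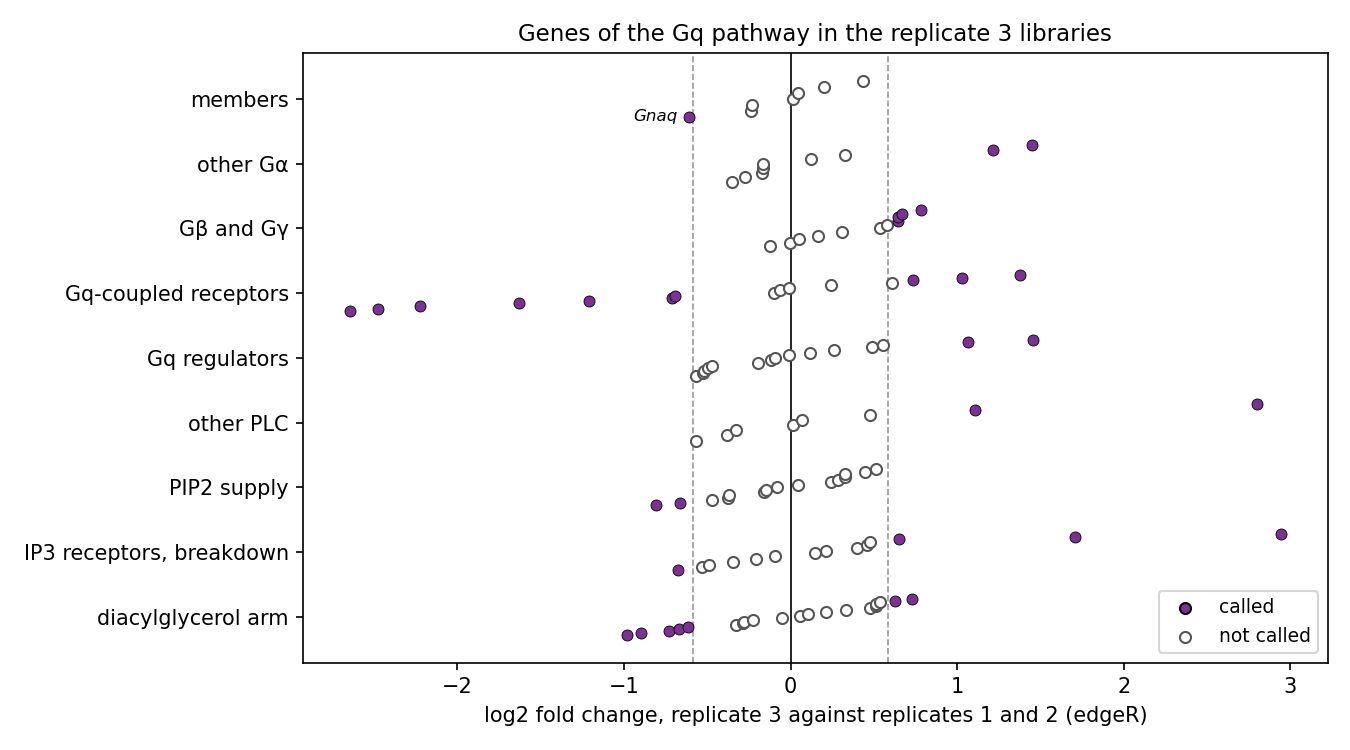
Log2 fold change of replicate 3 against replicates 1 and 2 (x axis) for every tested gene of the 8 members and of the lists of the Gq pathway (rows), with called genes filled and dashed lines at a fold of 1.5. *Gnaq* is the called member at -0.61, and the 15 receptors spread the most widely to the left, with 7 called lower and 3 called higher.

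Within each replicate number, the difference between conditions was close to 0 for *Gnaq*. Its log2 ratio of *Thada*-activated to control was -0.03, 0.02 and -0.02 in numbers 1, 2 and 3. *Gna11* had 0.05, 0.07 and -0.14, *Plcb1* -0.03, -0.01 and 0.14, and *Plcb3* -0.22, -0.04 and 0.07. For these 3 genes and for *Plcb4*, the sign in number 3 was opposite to that in numbers 1 and 2, which was so for 4 of 7 members and for 25.3% of all tested genes. *Gna15* was the member with the same sign in all numbers, at -0.21, -0.68 and -0.39, as were 33% of all tested genes. *Tgm2* had -1.27, 0.22 and 0.16.

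Whether the effect of activation differed between replicate 3 and the others was tested as an interaction. Replicate 3 has 1 library per condition, so the spread in that test came from replicates 1 and 2 and was assumed to hold for replicate 3. Of all tested genes, 227 (1.81%) were called, 1.41% with a positive and 0.407% with a negative interaction. An adjusted p under 0.05 was reached by 871 (6.96%), 3.7% positive and 3.26% negative. Among the 7 tested members these were 0 and 1, the latter positive. This was *Plcb4*, with log2 ratios of -0.04, -0.20 and 0.22 in numbers 1, 2 and 3 and an interaction of 0.34 (SE 0.10, adjusted p = 0.0238 in edgeR), a fold of 1.27. Blocked by replicate number, 204 of all genes (1.63%) were called and 559 (4.47%) had an adjusted p under 0.05, and that of *Plcb4* was 0.0672 in edgeR. It was 0.285 in DESeq2, and without *Thada*-activated replicate 1 or 2 it was 0.109 or 0.202 in edgeR. The adjusted p ranged from 0.0005 to 0.285 over the alternatives. For *Gna11* the interaction was -0.20 (SE 0.09, unadjusted p = 0.0317, adjusted p = 0.184 in edgeR, and 0.038 without control replicate 1), and for *Gnaq* -0.01 (SE 0.10, 95% interval from -0.22 to 0.19). Of the genes on the lists, 1 regulator, *Rgs4*, and 3 receptors, *Ffar1*, *Oxtr* and *P2ry6*, were called, all with positive interactions. Of 14 tested β-cell markers, 8 had an adjusted p under 0.05 in the interaction, 5 positive and 3 negative, beside 6.96% of all tested genes. Their part in the interactions of the other genes was not tested.

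**Figure D4:**
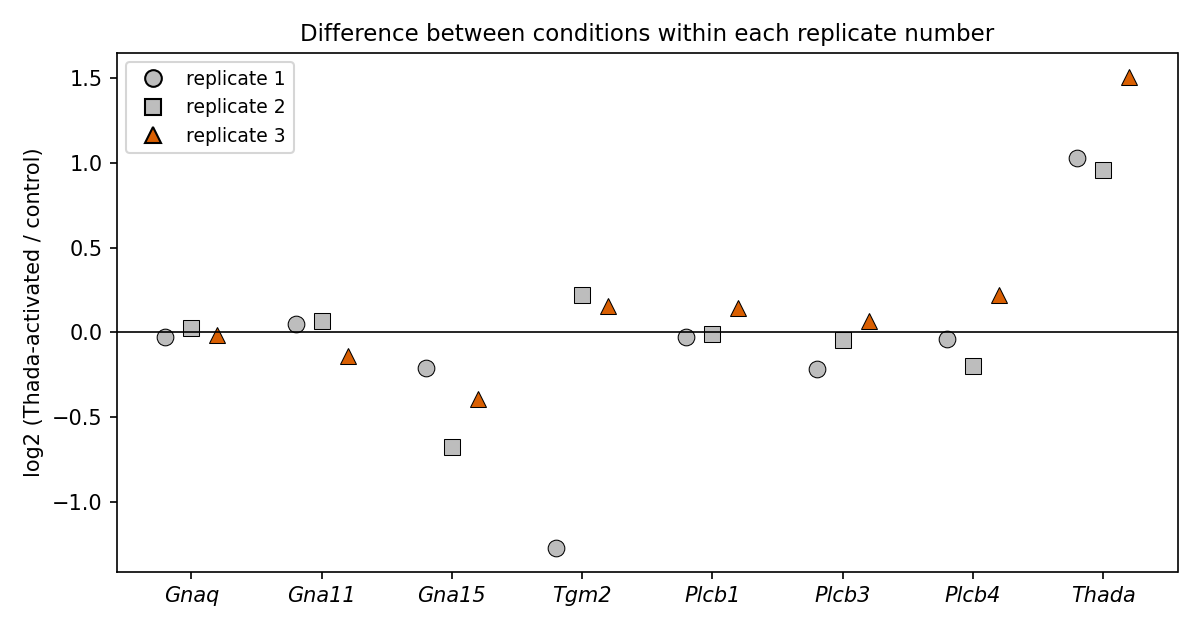
Log2 ratio of *Thada*-activated to control (TMM CPM, y axis) within each replicate number for the 7 tested members and *Thada* (x axis), with 1 point per number. *Gnaq* stays between -0.03 and 0.02, *Plcb4* is at 0.22 in number 3 and below 0 in the others, and *Thada* is above 0.95 in each.

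Genes with the most similar pattern over the 6 libraries were searched among 12076 other genes with a mean of at least 1 CPM. By Pearson's r of log2 CPM, *Gnaq* was nearest to *Etv1* (r = 1.00) and *Med24* (r = 1.00), *Gna11* to *Cdkn2d* (0.999) and *Snapc2* (0.997), and *Gna15* to *Tut4* (0.996) and *Unc5b* (0.986). *Plcb1* was nearest to *Gria2* (0.992) and *Ociad2* (0.988), *Plcb3* to *Hipk2* (0.998) and *Snapc4* (0.988), *Plcb4* to *Shprh* (0.998) and *Ica1l* (0.996), and *Tgm2* to *Fn3k* (0.983) and *Zbtb49* (0.95). These values describe the same 6 libraries, which share the split of replicate 3 from the rest. For *Gnaq*, 2166 genes had an r over 0.95, against 11 for *Gna15* and 16 for *Plcb1*, so a high r with *Gnaq* was common.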

How the data were processed

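The authors sequenced total RNA on the BGISEQ-500 and deposited RSEM expected counts per gene, without normalization, in 6 files. They also deposited FPKM and TPM values, scaled by gene length and library size, in 1 table of the series, whose counts equalled those of the sample files at all 16640 genes. Bowtie2, RSEM, DESeq2 and GRCm38 are named in the submitters' processing notes, without versions. That table's log2 fold changes, p-values and q-values hold the authors' own comparison and were not used.

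Expected counts, of which 91.1% to 91.9% were whole in a library, were rounded. Under R 4.3.3, filterByExpr chose the genes to test, TMM scaled the libraries, and edgeR 4.0.16 (robust quasi-likelihood test, Benjamini-Hochberg over all tested genes) compared conditions with no other term, replicate 3 with replicates 1 and 2 with the condition as a term, and their interaction. Intervals are 95%, from the standard error |log2 fold change| divided by the square root of F. The tests were tried on simulated data, in which the condition test met no split of replicate 3. That trial therefore does not measure how well the condition test finds differences in these libraries. DESeq2 1.42.0 and limma 3.58.1 were alternatives. Shares were compared by exact permutation. Sequences, positions and stretches of 50 bases came from GENCODE M21 and GRCm38.

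The members, the lists, the named genes and the comparison of replicate 3 with replicates 1 and 2 were chosen with earlier results of these data known. The genes named are the members, *Gna14*, *Thada*, the most abundant gene of each list, the 3 called genes of each list with the smallest p in the replicate 3 comparison, list genes called in the interaction, those of the genes so named with an adjusted p under 0.05 there, and the 2 genes most like each member. *Rgs4*, *Oxtr* and *P2ry6* in the interaction were chosen after their values were seen. After the condition means were removed, libraries of the same replicate number had correlations across genes of 0.667, 0.671 and 0.869 between conditions, so numbers were taken to pair the libraries, although crossing numbers 1 and 2 gave 0.705 and 0.726. No libraries of a condition agreed within sampling noise (chi-square per degree of freedom of at least 1.83).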

Additional observations from a re-analysis of the deposited data

Results flagged for a closer look

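The genes given here had an adjusted p under 0.05 for the interaction of condition and replicate 3 in edgeR, which 6.96% of all tested genes reached (1.81% with a fold over 1.5). Some of these genes were named because of this result, so their number is no measure of how common it is among the genes of the pathway. Replicate 3 has 1 library per condition, so its own spread is not known, and these p-values hold only if it varies like replicates 1 and 2.

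*Rgs4*, which encodes a regulator that speeds up GTP hydrolysis by α subunits, had an interaction of 1.19 on the log2 scale (adjusted p = 1.5e-14 in edgeR). It was at 122, 133 and 56.5 CPM in the controls and 122, 115 and 120 CPM with *Thada* activated, so that control replicate 3 was the low library. *P2ry6*, a receptor for UDP, had an interaction of 1.59 (adjusted p = 0.00779 in edgeR), with 12.7, 10.1 and 1.03 CPM in the controls and 9.97, 11.2 and 2.90 CPM with *Thada* activated. In limma on log2(FPKM + 1) it was 0.84 and not called (adjusted p = 0.0676). *Ffar1* had an interaction of 0.79 (adjusted p = 0.000741 in edgeR), and its replicate 3 libraries held 9.06 CPM without and 16.95 CPM with activation. *Oxtr*, the oxytocin receptor, had an interaction of 0.62 (adjusted p = 0.000545 in edgeR), with 54.4, 60 and 28.1 CPM in the controls and 53.8, 53.5 and 40.6 CPM with *Thada* activated. It was not called in limma with 1 or 0.1 added to FPKM (adjusted p = 0.0757 and 0.0646), and without control replicate 2 it was 0.55, under a fold of 1.5. *Unc13a* had 0.38 (adjusted p = 0.00736 in edgeR, 0.0364 blocked by replicate number) and *Prkca* 0.37 (adjusted p = 0.0155 in edgeR, 0.0482 blocked), both under a fold of 1.5. Neither reached an adjusted p under 0.05 in DESeq2 or limma. *Plcb4* had 0.34, under a fold of 1.5, and did not reach an adjusted p of 0.05 with the replicate block (0.0672), in DESeq2 (0.285) or in limma with 1 or 0.1 added to FPKM (0.145 and 0.138). *Thada* had an interaction of 0.52 (adjusted p = 0.00935 in edgeR), with log2 ratios of 1.03, 0.96 and 1.51 in numbers 1, 2 and 3.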

How the results depend on the processing

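Signs of most member differences between conditions were not stable. With library sizes taken without the 20 top genes, the log2 fold change between conditions was 0.00464 for *Gnaq*, and its interaction was 0.0121. With limma on log2(FPKM + 1), *Gnaq*, *Gna11* and *Plcb4* had 0.0112, 0.00897 and 0.00619 between conditions, and *Gnaq* had an interaction of 0.0197. With limma on log2(FPKM + 0.1) these were 0.0119, 0.00919, 0.0073 and 0.0212. In replicates 1 and 2 alone, *Gna11* had 0.060 and *Plcb1* -0.0171, with or without the replicate block. In the replicate 3 comparison, *Plcg1* had -0.0024 with no filter on low counts. In control libraries alone, *Gna15* had -0.00317 and *Plcb1* -0.045, and in *Thada*-activated libraries alone *Rgs4* had 0.032, against -0.52 in all libraries.

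Numbers of called genes depended on the test. Between conditions, they were 5 in DESeq2, 19 with the replicate block, 70 in replicates 1 and 2 alone with the block and 68 without it. In the replicate 3 comparison they were 8592 without a fold threshold. In the interaction they were 40 in DESeq2, 46 and 107 in limma with 1 and 0.1 added, 871 without a fold threshold and from 159 to 345 with 1 library left out.

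With counts not divided by length, the mean shares were 34.1% for *Gnaq*, 65.3% for *Gna11*, 0.508% for *Gna15*, 28.7% for *Plcb1* and 16.9% for *Plcb3*. The *Gna15* share then differed by 0.0239 percentage points in replicate 3 and the *Plcb4* share by -0.0576 points between conditions. In replicates 1 and 2 alone, an alternative added after the data were seen, the *Plcb4* share differed by -0.902 points between conditions. Shares per kb of the longest coding transcript and from TPM were likewise added.

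With 1 library left out at a time, log2 fold changes between conditions were from -0.18 to 0.17 for *Gnaq*, -0.0701 to 0.093 for *Gna11*, -0.00474 to 0.0606 for *Plcb1*, -0.17 to 0.0141 for *Plcb3*, -0.14 to 0.0786 for *Plcb4* and -0.61 to 0.00894 for *Tgm2*. In replicate 3 they were from -0.0764 to 0.10 for *Gna15*, -0.0405 to 0.12 for *Plcb1*, -0.00785 to 0.0175 for *Plcg1* and -1.17 to 0.0223 for *Rgs4*. Interactions were from -0.18 to 0.29 for *Gna15* and -0.0304 to 0.00336 for *Gnaq*. Share differences between conditions were from -3.40 to 2.67 points for *Gnaq*, -2.35 to 3.82 for *Gna11*, -0.0812 to 0.0356 for *Gna14*, -0.133 to 2.17 for *Plcb1* and -1.33 to 1.51 for *Plcb4*. In replicate 3 they were from -0.124 to 0.0929 points for *Gna15* and -1.54 to 0.163 for *Plcb3*.

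The causes of these changes were not tested. The files give no gene length, so shares by a deposited length were not computed. DESeq2 gave no adjusted p in the interaction for *Gna15*, *Plcb1*, *Plcb3*, *Tgm2*, *Ffar1*, *Oxtr*, *P2ry6* and *Thada*, and without a replicate 3 library the interaction has no value.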

Other observations

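The markers of other cells on the lists gave the following summed levels, for which no comparison was planned. Other islet hormones held 198, 166 and 111 CPM in control and 184, 173 and 115 CPM in *Thada*-activated libraries, with *Sst* at the top and *Ghrl* at the floor. Exocrine and ductal markers, 6 of 13 in the files, held 151, 151 and 73.2 CPM in control and 184, 185 and 97.3 CPM in *Thada*-activated libraries. Nearly all of this was *Krt7*, while *Cela2a*, *Amy2a1*, *Amy2a2* and *Sox9* were at or under the floor in every library. Stromal and endothelial markers, 7 of 9 in the files, held 3.40, 3.32 and 5.51 CPM in the controls and 3.44, 4.14 and 7.05 CPM with *Thada* activated, with *Col1a1* at the top and *Cdh5* and *Kdr* at or under the floor in every library.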
